A study of Mus musculus with 6 samples.

Results

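The genes of cholesterol synthesis and of its control by the sterol regulatory element binding proteins (SREBPs) were followed in cultured cardiac fibroblasts (CFs). The members were 29 genes of known function out of 19446 genes in the table. They were chosen by symbol, though with earlier results of these data known. They comprised 7 enzymes of the mevalonate pathway and 11 enzymes that turn its product into squalene and then sterol. A further 4, called regulators here, encode the SREBP precursors or control their processing. The rest were 2 genes of sterol transport and 5 enzymes of fatty acid synthesis and desaturation. All 29 were found, and all 29 passed the filter on low values, which kept 15948 genes counted 10 or more times in 2 or more libraries.

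The study had sequenced poly(A) RNA of CFs from 5-week-old mice in 2 groups, with 3 libraries each numbered 1 to 3. The control group was wildtype C57BL/6J (WT), and the other group was CharmeKO, in which a polyadenylation signal had been inserted into *Charme*, a gene for a long non-coding RNA, to end its transcription early. Both groups of cells had grown out of atrial tissue pieces pooled from littermates and were kept for weeks in medium with fetal bovine serum, which carries cholesterol, on fibronectin. The insertion was carried by the whole animal, not by fibroblasts alone. The labels do not say whether the libraries of a group came from separate animals or cultures. The methods of the study name independent isolations of primary cells for its experiments in general, without tying them to these libraries, so that p-values measure the spread between the libraries, part of which may be technical.

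Values are normalised reads, that is, reads of a gene divided by a size factor for the library. The reads behind them could be recovered and amounted to 38330019 to 46797446 in each library. The targeted feature had few reads in both groups: CUFF405, the one entry without an Ensembl identifier and taken here as the added *Charme* entry, counted 5, 15 and 11 reads across WT 1 to 3 and 0, 6 and 3 across CharmeKO 1 to 3. With a count of 0, CharmeKO 1 could hold up to 0.0671 CPM, the share of a library's reads that a gene takes, scaled to a common total (counting error only). Fibroblast markers were abundant in every library (11 genes, 35706.9 to 71465.1 CPM in WT and 43080.7 to 53988.0 in CharmeKO, summed), while the 3 cardiomyocyte markers with values summed to 3.22 to 18.5 CPM and the 5 endothelial markers with values to 1.00 to 8.14, with *Cdh5* at 0 in at least 1 library. In RNA from a whole culture, fewer cells of a type and less RNA per cell cannot be told apart.

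Cholesterol is built from acetyl-CoA through mevalonate, isoprenoid units, squalene and lanosterol. The genes of the pathway are switched on together by SREBP-2, the product of *Srebf2*, while SREBP-1, the product of *Srebf1*, acts more on fatty acid synthesis. Both are made as precursors held in the endoplasmic reticulum by SCAP and INSIG proteins when sterol is plentiful, and are carried to the Golgi and cut to release the active factor when it is scarce. The active factors bind sterol regulatory elements (SREs) near gene starts, as a rule together with NF-Y at CCAAT boxes and with Sp1 at GC boxes. Fibroblasts make their own cholesterol and also take it up from serum.

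The promoters of 3 members show these elements. *Hmgcs1* encodes HMG-CoA synthase and has long served as a model of SREBP control, *Insig1* carried the lowest p-value of the members once libraries were paired by number, and *Mvk* was the one member whose values did not overlap between the genotypes. Each sequence runs from 250 bases before to 50 bases after an annotated start (RefSeq, GRCm38.p6, plus strand), at chr13:119690101-119690400, chr5:28071162-28071461 and chr5:114444019-114444318 in turn. Capitals mark the SRE TCACCCCAC and the CCAAT box, which reads ATTGG on the other strand.
Hmgcs1: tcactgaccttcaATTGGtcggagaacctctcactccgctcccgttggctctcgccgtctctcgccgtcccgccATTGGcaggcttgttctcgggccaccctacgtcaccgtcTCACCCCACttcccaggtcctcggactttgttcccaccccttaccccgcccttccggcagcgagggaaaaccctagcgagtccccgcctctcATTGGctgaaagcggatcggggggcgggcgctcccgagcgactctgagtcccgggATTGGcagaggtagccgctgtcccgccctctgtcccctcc
Insig1: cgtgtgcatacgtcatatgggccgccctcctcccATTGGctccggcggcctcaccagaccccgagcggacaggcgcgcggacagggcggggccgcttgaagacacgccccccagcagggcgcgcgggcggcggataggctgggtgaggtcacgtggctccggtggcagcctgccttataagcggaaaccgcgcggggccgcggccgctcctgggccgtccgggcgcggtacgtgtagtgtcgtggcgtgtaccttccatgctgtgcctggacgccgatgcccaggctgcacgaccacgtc
Mvk: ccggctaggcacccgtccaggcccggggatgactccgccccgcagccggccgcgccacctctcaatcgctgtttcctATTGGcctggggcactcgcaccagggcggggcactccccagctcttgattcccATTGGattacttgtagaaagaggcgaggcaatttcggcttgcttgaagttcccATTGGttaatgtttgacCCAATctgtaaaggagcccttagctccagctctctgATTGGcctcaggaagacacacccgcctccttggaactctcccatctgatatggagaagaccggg
The *Hmgcs1* promoter held 1 SRE, which began at position -137 relative to the start, and 4 CCAAT boxes. The *Mvk* promoter held 5 CCAAT boxes and that of *Insig1* held 1, with no match to the SRE letters in either window.

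A RefSeq promoter was matched to 23 of the 29 members, and *Fdps*, *Fdft1*, *Sqle*, *Stard4*, *Scd1* and *Scd2* had none. The CCAAT box, searched on both strands, was found in 19 of the 23 (82.6%), against 41.1% of the 27025 genes with a promoter. The GC box GGGCGG was found in 20 of 23 (87%), against 38.2%, and the E-box CACGTG, to which SREBP-1 can also bind, in 6 of 23 (26.1%), against 8.09%. The SRE TCACCCCAC was found in *Hmgcs1* alone (4.3% of the 23, against 0.614%), and its looser form TCACNCCAC, which holds every match of the former, in no further member (1.44% of all genes). The 27025 genes outnumber the 15948 tested, so they include genes with few or no reads in these cells, whereas all 29 members passed the filter. Shares among expressed genes alone were not computed. A match describes the letters of the window and does not show that a factor was bound there.

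Among the regulators, *Srebf2* encodes the precursor of SREBP-2. It had 6519, 9401 and 8530 normalised reads in WT 1, 2 and 3 and 7541, 10982 and 9126 in CharmeKO 1, 2 and 3. CharmeKO was higher within each number, but the groups overlapped, since the libraries numbered 1 lay below all others in both genotypes. The log2 fold change of *Srebf2* (CharmeKO minus WT, here and throughout on the scale of log2 of the value plus 1) was 0.18 (SE 0.223), with a limma adjusted p of 0.9999 after Benjamini-Hochberg correction over all genes, the value that every one of the 29 members had.

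*Srebf1* encodes the precursor of SREBP-1 and varied least of the regulators. Its values were 4010, 4150 and 3912 in WT 1, 2 and 3 and 4712, 4816 and 3919 in CharmeKO 1, 2 and 3. CharmeKO 1 and 2 stood above all WT libraries, whereas CharmeKO 3 lay among them, and the log2 fold change was 0.15 (SE 0.151). The log2 ratio of *Srebf1* to *Srebf2*, which does not depend on how a library was scaled, was -0.70, -1.18 and -1.12 in WT 1, 2 and 3 and -0.68, -1.19 and -1.22 in CharmeKO 1, 2 and 3. It averaged -1.0 ± 0.262 for WT and -1.03 ± 0.304 for CharmeKO (mean ± SD over 3 libraries), and the means lay -0.027 apart, well inside those SDs (exact permutation test, two-sided, p = 0.7, with 0.1 the smallest that 3 against 3 libraries allow). The ratio followed the replicate number, with the libraries numbered 1 above the rest in both genotypes.

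*Insig1*, which retains SCAP and the SREBP precursors in the endoplasmic reticulum and is itself an SREBP target, had 3658, 6465 and 3592 normalised reads in WT 1, 2 and 3. Its CharmeKO values were 4403, 8160 and 4427 for numbers 1, 2 and 3. The values in both genotypes were nearly equal for numbers 1 and 3 and much higher for number 2, and within each number CharmeKO was above WT by a like amount. These differences were 0.27, 0.34 and 0.30 on the log2 scale for numbers 1, 2 and 3. The log2 fold change of *Insig1* was 0.30 (SE 0.343) without regard to the number. With the replicate number as a block in limma, the SE was 0.0805, the 95% confidence interval 0.087 to 0.52 and the unadjusted p 0.0165, while the adjusted p was 0.7997, and it was 0.5219 in DESeq2 with the same block.

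*Scap*, the escort that carries SREBP precursors to the Golgi, had 4890.5, 7459 and 5542 normalised reads in WT 1, 2 and 3 and 5765, 10338.5 and 5882 in CharmeKO 1, 2 and 3. CharmeKO 2 was the highest library and WT 1 the lowest, and the groups overlapped. *Scap* had a log2 fold change of 0.26 (SE 0.291), and with the block the unadjusted p was 0.0682. All 4 regulators were thus higher in CharmeKO within all 3 numbers, by a median of 0.24, 0.28 and 0.092 for numbers 1, 2 and 3, and none passed the test.

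**Figure D1:**
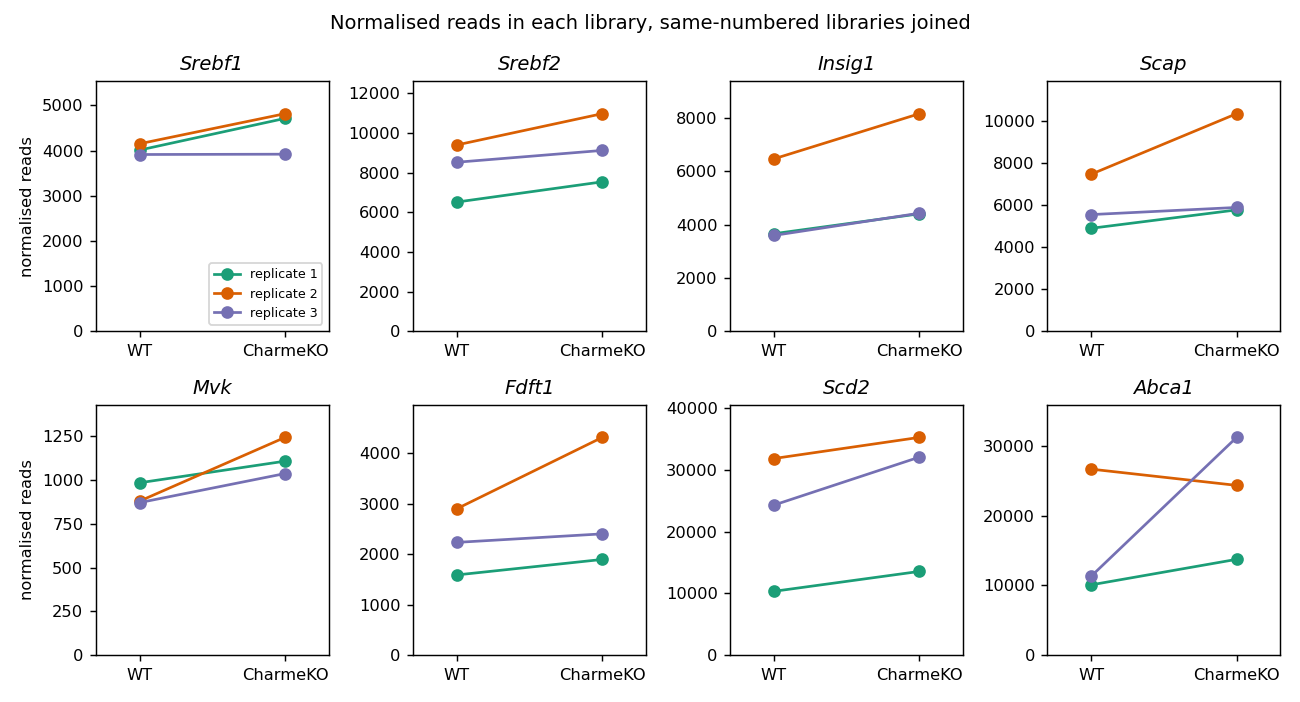
Normalised reads (vertical axes, from 0) of 8 members in each library, with WT and CharmeKO libraries of the same replicate number joined by a line and coloured by number. *Insig1* runs from 3592 to 6465 in WT and from 4403 to 8160 in CharmeKO, rising in every number and most steeply in number 2. *Abca1* falls from 26705 to 24368 in number 2 and climbs from 11301 to 31269 in number 3.

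The mevalonate pathway runs from acetyl-CoA to farnesyl diphosphate. *Mvk*, mevalonate kinase, had 985, 880 and 871 normalised reads in WT 1, 2 and 3 and 1109, 1245 and 1038 in CharmeKO 1, 2 and 3. Every CharmeKO library lay above every WT library. *Mvk* differed by a log2 fold change of 0.31 (SE 0.165, unadjusted p = 0.108 and adjusted p = 0.9999 in limma), and the unadjusted p was 0.0506 with the block. *Mvk* was 1 of 29 members (3.45%) whose groups did not overlap, against 4.11% of all genes tested, so that the share among the members was close to the background.

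*Pmvk*, phosphomevalonate kinase, which acts next after *Mvk*, had 215, 334 and 312 normalised reads in WT 1, 2 and 3 and 293, 391 and 275 in CharmeKO 1, 2 and 3. It was higher in CharmeKO for numbers 1 and 2 and lower for number 3, and its log2 fold change was 0.16 (SE 0.287). *Acat2*, which joins acetyl-CoA units, *Hmgcs1*, which makes HMG-CoA, and *Mvd*, the decarboxylase of the pathway, showed the same order within numbers, higher in CharmeKO for 1 and 2 and lower for 3. Their log2 fold changes were 0.027 for *Acat2*, 0.010 for *Hmgcs1* and 0.13 for *Mvd* (SE 0.383, 0.204 and 0.368). *Idi1*, the isomerase of the isoprenoid units, was at -0.019 (SE 0.271), lower in CharmeKO for number 1 alone.

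*Fdps*, farnesyl diphosphate synthase, was the member with the fewest reads, with 31 to 87 recovered reads in a library, and its log2 fold change of -0.15 carried the widest error but one (SE 0.523). Over 26.7% of the annotated exon length of *Fdps* other annotated genes lie on the same strand, and reads that fall on more than one gene are not counted by STAR, so that its low level is uncertain. *Acat2* has a near-identical stretch (at least 95% over at least 300 bases) in *Acat3*, and *Idi1* in 2 pseudogenes, whose shared reads were lost or split as well. Over the 7 mevalonate enzymes the median log2 fold change was 0.027, against 0.0022 over all genes tested, with 5 higher and 2 lower in CharmeKO. Within numbers 1, 2 and 3 the medians were 0.16, 0.25 and -0.18.

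The 11 later enzymes lead from farnesyl diphosphate through squalene and lanosterol towards cholesterol. *Fdft1*, squalene synthase, which commits farnesyl diphosphate to sterol, had 1586.5, 2899 and 2232 normalised reads in WT 1, 2 and 3. It had 1894, 4316 and 2401 in CharmeKO 1, 2 and 3. Its libraries numbered 2 were the highest of each genotype, those numbered 1 the lowest, and CharmeKO was above WT within every number. For *Fdft1* the log2 fold change was 0.31 (SE 0.363), with an unadjusted p of 0.0581 with the block, and part of its reads may be shared with the pseudogene *Gm6781*.

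*Hsd17b7*, a ketoreductase in the removal of the methyl groups of lanosterol, went the other way from most of the pathway. It had 2517, 1276 and 2205 normalised reads in WT 1, 2 and 3 and 1961, 1485.5 and 964 in CharmeKO 1, 2 and 3. WT 1 was its highest library and CharmeKO 3 its lowest, and it was the one of the 18 enzymes not at its highest in CharmeKO 2. Its log2 fold change was -0.44 (SE 0.357, unadjusted p = 0.256), the lowest of the 29 members. It came mainly from number 3, with a difference of -1.19 there, against -0.36 and 0.22 in numbers 1 and 2.

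The other 9 sterol enzymes had log2 fold changes between -0.026 and 0.36. They were 0.22 for squalene epoxidase *Sqle*, -0.026 for lanosterol synthase *Lss*, 0.12 for the lanosterol demethylase *Cyp51* and 0.36 for the sterol reductase *Tm7sf2*. For *Msmo1* and *Nsdhl*, which work with *Hsd17b7* in removing methyl groups, they were 0.026 and 0.095. For the isomerase *Ebp* and for *Sc5d* and *Dhcr7*, which finish the ring, they were 0.25, 0.11 and 0.056. The SEs of these 9 genes ran from 0.203 for *Cyp51* to 0.425 for *Tm7sf2*. Of the 11 sterol enzymes, *Fdft1*, *Nsdhl*, *Ebp* and *Sc5d* were higher in CharmeKO within all 3 numbers. The median over the 11 was 0.11, with 0.086, 0.29 and -0.027 within numbers 1, 2 and 3.

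**Figure D2:**
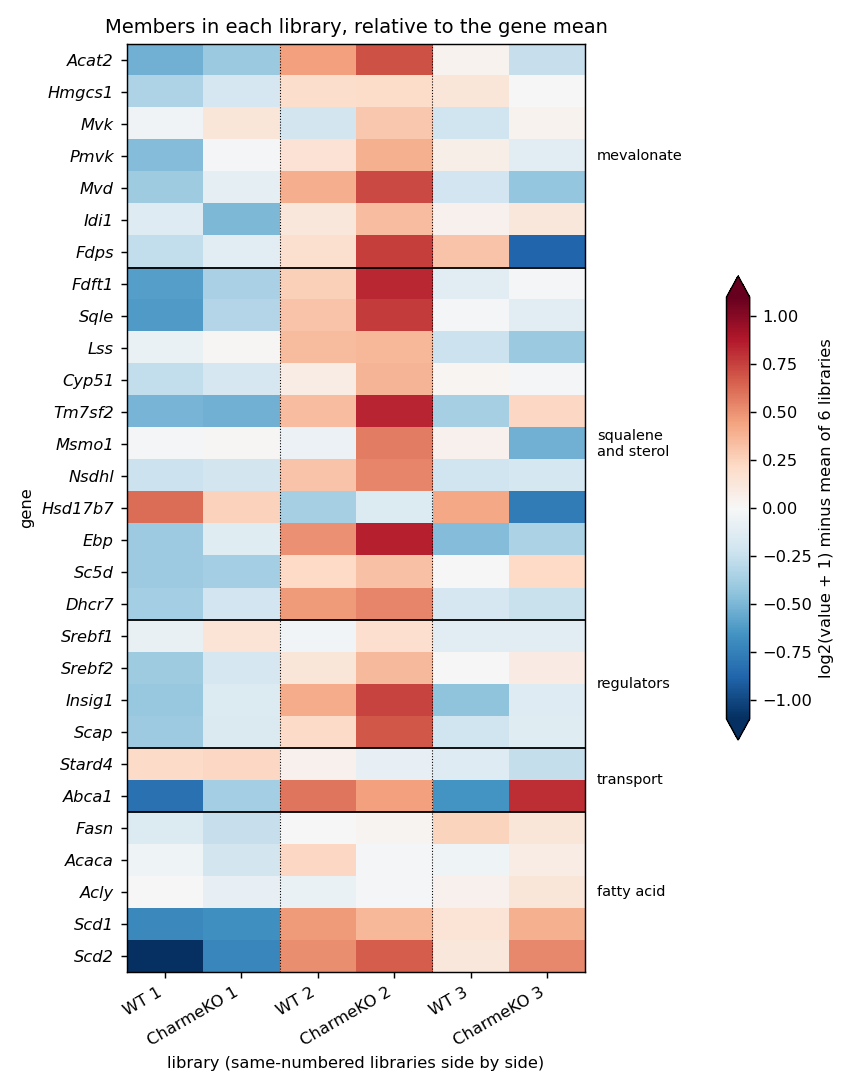
Log2 of the value plus 1 of each member (rows, ordered by role) in each library (columns, same-numbered libraries side by side), minus the mean of the gene over the 6 libraries, in colour. CharmeKO 2 is the reddest column, being the highest library for 22 of the 29 members, and WT 1 the bluest, being the lowest for 14, while *Hsd17b7* and *Stard4* run against this order.

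Of the transport genes, *Abca1* encodes the transporter that hands cellular cholesterol to apolipoprotein A-I, is switched on by liver X receptors when sterols are plentiful, and so is regulated in the opposite sense to the SREBP targets. It had 10068, 26705 and 11301 normalised reads in WT 1, 2 and 3 and 13739, 24368 and 31269 in CharmeKO 1, 2 and 3. WT 2, CharmeKO 2 and CharmeKO 3 were high and the other 3 libraries low, so the genotypes overlapped. The log2 fold change of 0.59 (SE 0.470, unadjusted p = 0.249) was the largest among the members, and it came from numbers 1 and 3, where the differences were 0.45 and 1.47, against -0.13 in number 2.

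*Stard4*, which carries cholesterol between membranes and is an SREBP-2 target, had 1443, 1288 and 1127 normalised reads in WT 1, 2 and 3 and 1457.5, 1165 and 1038.5 in CharmeKO 1, 2 and 3. It was highest in the libraries numbered 1 and lowest in those numbered 3 in both genotypes. Its difference of -0.083 (SE 0.198) was smaller than its error.

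*Srebf2* and *Abca1* are also tied by a microRNA. *Mir33* lies within *Srebf2* on the same strand and outside annotated exons of other genes (GRCm38, GENCODE M21), and its mature product is known to repress *Abca1*. Its sequence is shown because it joins these members, at chr15:82198127-82198147 (RefSeq, GRCm38.p6, plus strand), with the seed, bases 2 to 8, in capitals. Below it stands the first of 3 seed matches in the 3159-base 3′ UTR of *Abca1*, with that match in capitals. The matches begin at bases 138, 143 and 153 of that UTR. The second overlaps the first and also lies within the printed window, where it is not marked.
mmu-miR-33-5p: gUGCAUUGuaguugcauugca
Abca1 site: gtactgacactattCAATGCAatgcact
The poly(A) libraries do not measure the mature microRNA, which was not analysed here, and the letters alone say nothing of its activity. On the log2 scale, the differences between CharmeKO and WT within numbers 1, 2 and 3 were 0.21, 0.22 and 0.098 for *Srebf2* and 0.45, -0.13 and 1.47 for *Abca1*.

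The fatty acid enzymes, on which SREBP-1 mainly acts, fell into 2 kinds by their spread. *Acly*, *Acaca* and *Fasn*, which in turn make cytosolic acetyl-CoA, malonyl-CoA and palmitate, varied by 1.17-, 1.35- and 1.41-fold over the 6 libraries. *Acaca* had 3470, 4207 and 3486 normalised reads in WT 1, 2 and 3 and 3115, 3556 and 3811 in CharmeKO 1, 2 and 3. CharmeKO was lower for numbers 1 and 2 and higher for number 3. The log2 fold changes were -0.090 for *Acaca* (SE 0.162), -0.058 for *Fasn* (SE 0.200) and 0.013 for *Acly* (SE 0.152). Part of the reads of *Acaca* may be shared with the pseudogene *Gm5182*.

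The desaturases *Scd1* and *Scd2*, which put the double bond into stearate and palmitate, varied by 2.26- and 3.42-fold, *Scd2* more than any other member. *Scd2* had 10321, 31872 and 24317 normalised reads in WT 1, 2 and 3 and 13552, 35305 and 32105 in CharmeKO 1, 2 and 3. The libraries numbered 1 were far below the others in both genotypes, and CharmeKO was above WT within each number. The log2 fold change of *Scd2* was 0.31 (SE 0.542), and with the block the SE was 0.117, the interval 0.0024 to 0.63, the unadjusted p 0.0489 and the adjusted p 0.7997. *Scd1*, with 2776 to 6283 in WT and 2836 to 5930 in CharmeKO, was at 0.055 (SE 0.410).

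The 2 desaturases are close paralogs with a near-identical stretch, so that some of their reads could not be assigned. Their log2 ratio, *Scd1* to *Scd2*, was -1.89, -2.34 and -2.28 in WT 1, 2 and 3 and -2.26, -2.59 and -2.44 in CharmeKO 1, 2 and 3. It averaged -2.17 ± 0.242 for WT and -2.43 ± 0.169 for CharmeKO (mean ± SD over 3 libraries). The ratio was lower in CharmeKO within all 3 numbers, by 0.26 on average, but the groups overlapped (exact permutation test, two-sided, p = 0.3 over libraries and 0.25 over pairs, the smallest that 3 pairs can give). Of the fatty acid enzymes the median log2 fold change was 0.013.

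Levels between genes can be set side by side only per length of transcript. In RPKM, that is, CPM for each kilobase of annotated exon, averaged over the 6 libraries, *Scd2* was the highest member at 109.9, followed by *Abca1* at 46.1, *Acly* at 40.6 and *Insig1* at 40.3. *Srebf2* stood at 29.3 and *Srebf1* at 18.3. Among the cholesterol enzymes *Sc5d* (25.6), *Cyp51* (24.0) and *Hmgcs1* (19.7) were highest, and *Dhcr7* (2.05), *Tm7sf2* (1.75) and *Fdps* (0.307) lowest. Exon lengths were those of all annotated transcripts joined, so genes with long rare exons come out too low. *Vps51* overlaps 12.1% of the exon length of *Tm7sf2* on the same strand, so the level of *Tm7sf2* is uncertain as well.

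Across the whole set, no member passed the test between genotypes. With limma at an adjusted p under 0.05, 0 of 29 members and 0 genes (0%) of 15948 were called, and at an unadjusted p under 0.05 there were 0 members against 143 genes (0.897%). edgeR's quasi-likelihood test on the recovered reads called 0 members and 0 genes (0%), with 0 members and 158 genes at an unadjusted p under 0.05. DESeq2 called 0 members and 8 genes (0.0502%), with 0 members and 286 genes at an unadjusted p under 0.05. With the replicate number as a block, limma called 0 members and 0 genes (0%) and DESeq2 0 members and 64 genes (0.401%). At an unadjusted p under 0.05 in the blocked limma fit there were 2 members (6.9%), *Insig1* and *Scd2*, both higher in CharmeKO, against 857 genes (5.37%) in either direction and 342 genes (2.14%) that were higher.

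The intervals say how large a change could have been missed. The 95% confidence interval of the log2 fold change lay within -1 to 1 for 18 of 29 members without the block, and it reached above 1 for 10, among them *Insig1* (up to 1.12), *Fdft1* (1.18), *Scd2* (1.61) and *Abca1* (1.72). It reached below -1 for *Hsd17b7* (-1.30) and *Fdps* (-1.40), of which *Fdps* also reached above 1 (1.11). With the block, 26 intervals lay within -1 to 1, and those of *Abca1*, *Hsd17b7* and *Fdps* did not. The *Mvk* interval was -0.089 to 0.70 without the block and -0.0013 to 0.62 with it.

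**Figure D3:**
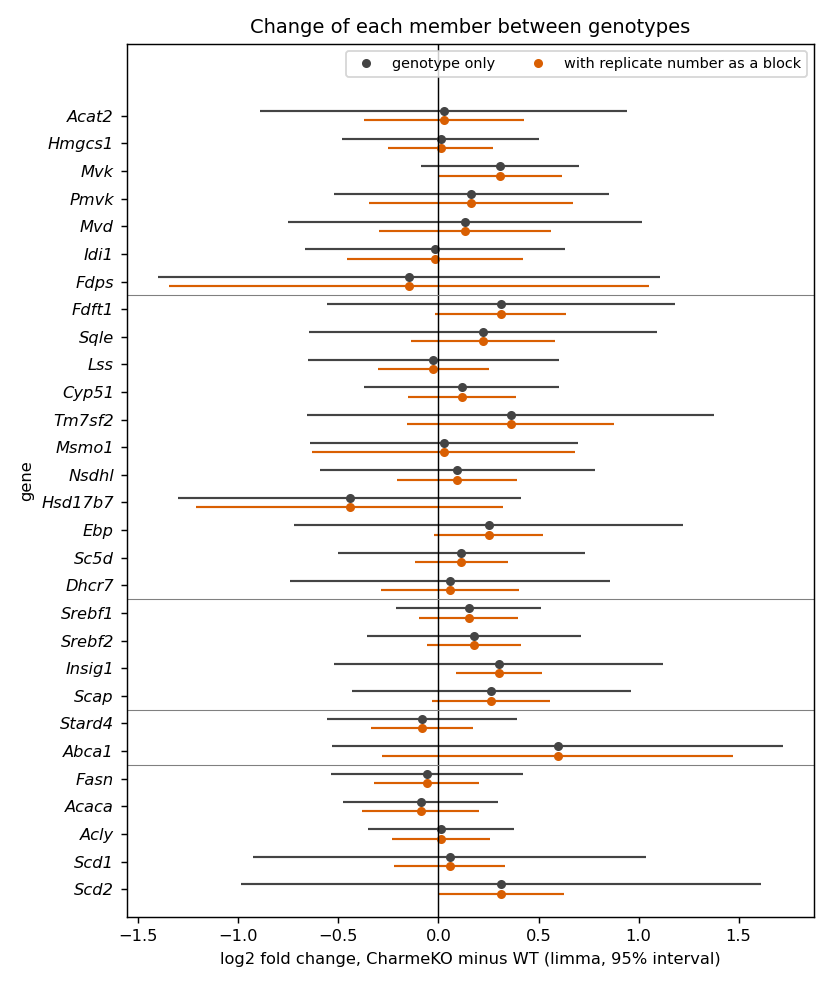
Log2 fold change of each member (CharmeKO minus WT, horizontal axis) with its 95% confidence interval from limma, without (grey) and with (orange) the replicate number as a block, ordered by role. All 29 grey intervals include 0, and the orange ones of *Insig1* and *Scd2* do not, at 0.087 to 0.52 and 0.0024 to 0.63.

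The direction of the differences was uneven. The log2 fold change was above 0 for 22 of 29 members (75.9%), against 50.4% of all genes tested, and its median was 0.11, against 0.0022 over all genes. CharmeKO was higher within all 3 numbers for 10 members (34.5%), namely *Mvk*, *Fdft1*, *Nsdhl*, *Ebp*, *Sc5d*, the 4 regulators and *Scd2*, against 16.4% of all genes. It was lower within all 3 numbers for 0 members, against 14.2% of all genes. Since genes under one control move together from library to library, the 29 members do not count as 29 separate observations, and the excess was carried by numbers 1 and 2, with 23 and 25 members higher in CharmeKO, against 16 in number 3. The medians within numbers 1, 2 and 3 were 0.15, 0.22 and 0.026.

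Fewer members changed direction when whole numbers were left out than when single libraries were, which was partly fixed in advance. The 10 members higher in CharmeKO within all 3 numbers could not turn when a whole number was left out. Without both libraries numbered 1, 2 or 3 in turn, the median over the members was 0.11, 0.053 and 0.19, and 21 members kept their direction each time. Without a single library, which leaves its same-numbered partner in a fit that ignores the number, the median was -0.088 without CharmeKO 2, -0.031 without WT 1 and 0.28 without WT 2. Leaving out both libraries numbered 2 left 12 members (41.4%) higher in CharmeKO within the remaining 2 numbers, against 26.8% of all genes, and 2 members (6.9%) lower within both, against 24.1%. For the 18 cholesterol enzymes alone, 5 (27.8%) were then higher within both numbers, close to the 26.8% of all genes, and 1 (5.56%) was lower within both, against the 24.1% of all genes. *Srebf1*, *Srebf2*, *Insig1*, *Mvk*, *Tm7sf2* and *Abca1* stayed higher, and *Hsd17b7* lower, in CharmeKO whichever single library was left out, and the other 22 members changed direction at least once. Of these 22, *Fdft1*, *Nsdhl*, *Ebp*, *Sc5d*, *Scap* and *Scd2* were higher in CharmeKO within all 3 numbers, so that they turned only where a pair was broken. The 8 members that turned when a whole number was left out were *Acat2*, *Hmgcs1*, *Idi1*, *Fdps*, *Lss*, *Msmo1*, *Acly* and *Scd1*.

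The replicate number carried most of the variance of the members. It accounted for 78.0% of their variance over the 6 libraries, genotype for 8.67% and the rest for 13.3%. For all genes tested the shares were 67.7%, 10.6% and 21.7%. With 3 numbers and 2 genotypes, the number would on average take a larger share than genotype even without any effect. The shares are summed gene by gene and do not show that the genes followed one order. For the 4 regulators these shares were 83.5%, 13.9% and 2.59%, and for the 5 fatty acid enzymes 94.0%, 3.74% and 2.30%. What the libraries of one number have in common is not given in the labels. Deviations from the group means correlated between same-numbered WT and CharmeKO libraries with r = 0.864, 0.521 and 0.0915 for numbers 1, 2 and 3 across the 29 members, points that share their libraries, against 0.762, 0.514 and 0.217 across all genes. Differently numbered libraries gave -0.777 to 0.313 across the members and -0.643 to 0.222 across all genes, both highest for WT 2 and CharmeKO 3. By this measure CharmeKO 3 was closer to WT 2 than to WT 3 in the members, and narrowly so over all genes. Differences within number 3 rest on the weakest pairing.

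The cholesterol enzymes were highest in number 2. Relative to the mean of each gene, the median of the 18 enzymes was -0.36, 0.24 and -0.0086 on the log2 scale in WT 1, 2 and 3 and -0.18, 0.54 and -0.16 in CharmeKO 1, 2 and 3. CharmeKO 2 was the highest library for 17 of the 18 and for all 4 regulators. WT 2 was above WT 1 for 15 of the 18 by a median of 0.59 and above WT 3 for 15 of the 18 by 0.28, the smallest of these steps. CharmeKO 2 was above CharmeKO 1 for 17 of the 18 by 0.74 and above CharmeKO 3 for 18 of 18 by 0.75. Over all genes the same steps had medians of -0.021, -0.023, -0.027 and -0.0085. The fatty acid enzymes did not share this order. All 5 were lower in number 1 than in number 3 in each genotype, and CharmeKO 2 was above CharmeKO 3 for 1 of the 5.

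Other gene lists moved with the number as well. The 10 proliferation genes summed to 443, 195 and 544 CPM in WT 1, 2 and 3 and 425, 186 and 542 in CharmeKO 1, 2 and 3, lowest where the cholesterol enzymes were highest. The adipocyte list, of which *Pparg*, *Fabp4* and *Lpl* could be summed, came to 41.0, 319 and 75.7 in WT 1, 2 and 3 and 56.4, 601 and 117 in CharmeKO 1, 2 and 3, highest where the enzymes were highest. The sum holds none of the more specific markers of the list, *Adipoq*, *Plin1*, *Cidec*, *Cfd* and *Lep*, which were not analysed here. It was mostly *Lpl*, lipoprotein lipase, at 12409.9 normalised reads for WT 2, 21973 for CharmeKO 2 and 1339 to 2841 for the other 4 libraries. *Fabp4* was also highest in number 2 of each genotype, at 211 in WT 2 and 1415 in CharmeKO 2, though CharmeKO 3 was at 1107. *Pparg*, at 146 to 1137, was highest in number 2 within WT (449.5) but lowest in number 2 within CharmeKO.

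The 10 smooth muscle and pericyte markers summed to 3932, 1339 and 6152 CPM in WT 1, 2 and 3 and 3618, 789.5 and 1379 in CharmeKO 1, 2 and 3. In both genotypes number 2 was the lowest. The 10 macrophage markers summed to 45.2 to 197 in WT and 25.3 to 420 in CharmeKO, lowest in number 3 of each genotype, with *Ptprc*, *Itgam* and *Fcgr1* at 0 in at least 1 library. The 6 mesothelial markers summed to 39.4 to 310 in WT and 21.7 to 345 in CharmeKO, highest in number 1. The part of these cells, and of the state of growth, in the levels of the cholesterol genes was not tested.

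**Figure D4:**
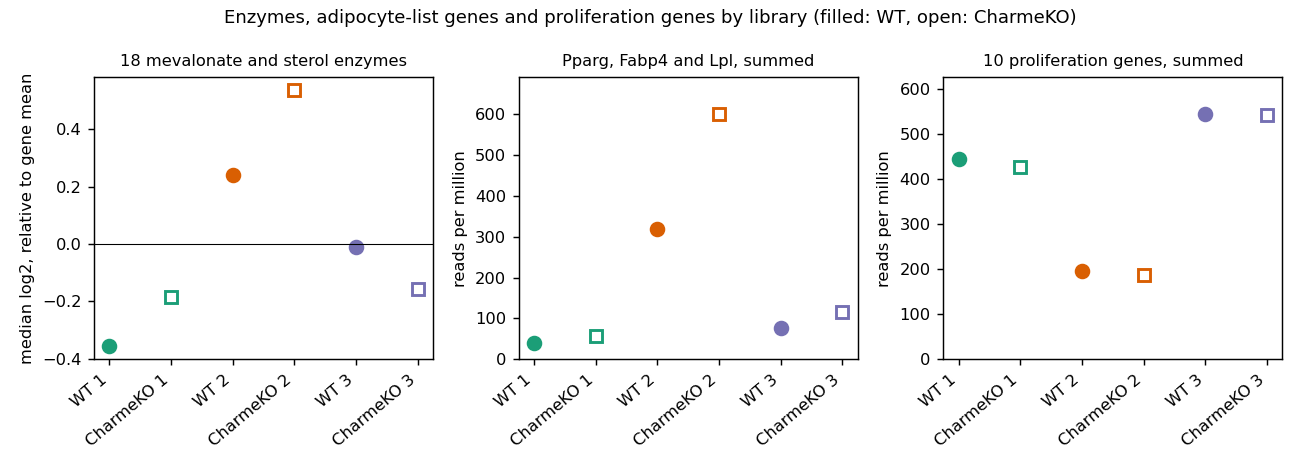
For each library (horizontal axis, filled WT and open CharmeKO, coloured by replicate number), the median of the 18 cholesterol enzymes relative to each gene's mean on the log2 scale (left), and the summed CPM of *Pparg*, *Fabp4* and *Lpl* (middle) and of 10 proliferation genes (right). The libraries numbered 2 are the highest in the left and middle panels, at 0.24 and 0.54 and at 319 and 601, and the lowest in the right panel, at 195 and 186.

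Genes next to the members in the pathway gave no calls either. Of 7 further sterol and isoprenoid genes tested (of 9 listed), 10 further regulators of SREBP and its partners, 16 further lipogenic genes (of 17) and 19 genes of sterol storage, efflux and liver X receptors, 0 passed in limma, with or without the block, or in DESeq2 with the block. At an unadjusted p under 0.05 there were 0 of these genes in limma, against 0.897% of all genes tested. With the block there was 1, against 5.37% of all genes tested. It was the malic enzyme gene *Me1*, named after its value was seen, with a log2 fold change of -0.26 (SE 0.253 without the block, unadjusted limma p 0.0449 with it). The further sterol and isoprenoid genes were lower in CharmeKO for 5 of 7 with a median of -0.076, and the regulators were higher for 7 of 10 with a median of 0.067. The lipogenic genes were split, 8 higher and 8 lower, with a median of 0.011, and the storage and efflux genes were higher for 14 of 19 with a median of 0.095.

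The gene with the lowest p-value of each of these lists was still far from the threshold. *Dhdds*, which makes dolichol precursors, had a log2 fold change of -0.20 (SE 0.193), and *Mbtps1*, the first protease to cut SREBPs in the Golgi, of 0.15 (SE 0.192). For *Acacb*, the mitochondrial acetyl-CoA carboxylase, it was -0.46 (SE 0.379), and for *Lpcat3*, a phospholipid remodelling enzyme under liver X receptors, 0.37 (SE 0.293). Each had an adjusted p of 0.9999 in limma. *Lpcat3* was higher in CharmeKO within all 3 numbers, with 1696, 2535 and 2058 normalised reads in WT 1, 2 and 3 and 1795, 3074 and 3462 in CharmeKO 1, 2 and 3. As for *Abca1*, the largest step between genotypes was in number 3. The other genes in the list of *Lpcat3* went either way in number 3. *Nr1h3* was at 226.3 in WT 3 and 374 in CharmeKO 3. *Abcg1* was at 29.66 and 20 in these libraries, and *Smpdl3a* at 551.5 and 261.8.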

How the data were processed

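Poly(A) RNA-seq of 3 WT and 3 CharmeKO libraries of cultured CFs was used. Native CFs were not analysed here. Per the methods, the authors aligned the reads to GRCm39 with STAR, took its gene counts for the reverse strand, and used DESeq2. The deposited signal is the read count of each gene divided by a size factor per library, with rarely counted genes removed by the authors. Dividing by each library's smallest positive value gave whole reads for all 116676 values, the largest deviation being 6.3e-09. STAR leaves out reads that match several places or genes.

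Groups and replicate numbers came from the sample titles. The test was limma 3.58.1 on log2(value + 1) with its variance trended on the mean, genotype alone, two-sided, over the 15948 genes with 10 reads in 2 libraries, with Benjamini-Hochberg adjustment at 0.05. The added pseudocount of 1 understates changes of rarely read genes. edgeR 4.0.16 and DESeq2 1.42.0 ran on the recovered reads as alternatives (R 4.3.3), beside other pseudocounts, filters and scalings, a replicate block and the removal of each library. Scripts were tested on simulated reads. Near-identical transcripts were found with minimap2 2.31 on GENCODE M21 (GRCm38), and plots were drawn in Python 3.11.15 with matplotlib 3.10.9. No gene coordinates are given, since the build of the reference differs from that of the study. Promoter and microRNA sequences were matched by symbol or name, with coordinates of GRCm38.p6.

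Whether equal numbers pair the libraries was checked over all genes tested: deviations of same-numbered libraries from their group means correlated with r = 0.762, 0.514 and 0.217, each over 0.1, and other combinations with -0.643 to 0.222. The highest of the other combinations was WT 2 with CharmeKO 3 at 0.222, just above the 0.217 of number 3. The numbers were taken to pair the libraries, from the data and not from the labels. For number 3 the pairing is weak and favoured from 1 side only. WT 3 was closest to CharmeKO 3, with -0.137 for CharmeKO 1 and -0.0762 for CharmeKO 2, but CharmeKO 3 was as close to WT 2. The block and the counts within all 3 numbers rest on this pairing.

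The members and lists were chosen with earlier results of these data known, so no p is given for a list. Values of each library are printed for the regulators, *Stard4*, *Abca1*, members whose groups do not overlap or with an unadjusted limma p under 0.05, and the 2 lowest p-values of each role. Of the neighbouring lists, the gene with the lowest p is named. *Lpl*, *Fabp4* and *Pparg* values were chosen after they were seen, as was the removal of both libraries of a number.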

Additional observations from a re-analysis of the deposited data

How the results depend on the processing

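No member was called in any of the 17 alternatives, and the smallest adjusted p of a member was 0.5219 (*Insig1*, DESeq2 with the block). DESeq2 called 8 genes and DESeq2 with the replicate block 64, against 0 in limma, and the block changed no other count of calls. Outside the fits that left out a library, 26 of 29 members kept their direction. *Idi1* was at 0.023 in edgeR, 0.014 in DESeq2 and 0.015 with plain library totals, *Hmgcs1* at -0.0048 in DESeq2 and *Lss* at 0.0085 with plain totals. The median over the members ran from 0.110 to 0.149 there, and was 0.053 to 0.19 without both libraries of a number, an alternative chosen after seeing the data. Without number 2, 12 members (41.4%) in place of 10 (34.5%) were higher within every remaining number, against 26.8% in place of 16.4% of all genes. This count could not fall, since fewer numbers have to agree.

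Leaving out 1 library in turn, without a block, 22 members changed direction. Their log2 fold changes ran from -0.32 to 0.26 for *Acat2*, -0.16 to 0.11 for *Hmgcs1*, -0.031 to 0.29 for *Pmvk*, -0.20 to 0.38 for *Mvd*, -0.19 to 0.22 for *Idi1*, -0.57 to 0.25 for *Fdps*, -0.027 to 0.57 for *Fdft1* and -0.11 to 0.44 for *Sqle*. They ran from -0.21 to 0.17 for *Lss*, -0.041 to 0.24 for *Cyp51*, -0.25 to 0.30 for *Msmo1*, -0.15 to 0.28 for *Nsdhl*, -0.11 to 0.56 for *Ebp*, -0.057 to 0.33 for *Sc5d* and -0.20 to 0.31 for *Dhcr7*. For the rest they were -0.011 to 0.44 for *Scap*, -0.22 to 0.026 for *Stard4*, -0.15 to 0.053 for *Fasn*, -0.15 to 0.0018 for *Acaca*, -0.050 to 0.061 for *Acly*, -0.28 to 0.41 for *Scd1* and -0.16 to 0.75 for *Scd2*. The median over the members ran from -0.088 to 0.28, the difference in the *Srebf1* to *Srebf2* ratio from -0.20 to 0.12 and that in the *Scd1* to *Scd2* ratio from -0.34 to -0.12. In these fits one genotype lacks a number, and the number carried most of the variance, whereas 8 members turned without both libraries of a number. The 10 members higher within all 3 numbers could not turn in the latter case. With 3 libraries a group and SEs of 0.151 to 0.542, differences of the size seen in most members were not detectable, and *Fdps*, at 31 to 87 reads, was limited by depth as well.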
